A study of Homo sapiens with 6 samples.

Results

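The genes described here are 3 Notch receptors (NOTCH1, NOTCH2 and NOTCH3), 3 partial copies of NOTCH2 (NOTCH2NLA, NOTCH2NLB and NOTCH2NLC), 2 Jagged ligands (JAG1 and JAG2) and 2 transcriptional targets (HES1 and HEY1). These 10 genes, of 62700 in the gene table, were taken by symbol, matched to Ensembl identifiers, after their values in these libraries had been seen. Their values, and the calls of a fit over all genes that are counted for them, are therefore a description and no test of these genes. All 10 passed the filter on low values used for testing. NOTCH2NLA passed it through the non-transduced libraries alone, and NOTCH2NLB through those and the RBMXL3 libraries, so that a difference in these genes is partly set by the filter.

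Polyadenylated RNA was sequenced from TCam-2, a cell line established from a human seminoma (a testicular germ cell cancer), in 3 groups with 2 libraries each. The groups were non-transduced cells (WT), cells transduced to overexpress FLAG-tagged GFP (GFP) and cells transduced to overexpress FLAG-tagged RBMXL3 (RBMXL3), a relative of the RNA-binding protein RBMX. GFP shares transduction and tag with RBMXL3, whereas WT shares neither. The vector, its promoter, the expressing share of cells and whether a clone was taken are not given in the sources used here, nor whether the duplicates came from separate cultures, so that spread and p-values measure only the variation between these libraries.

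Notch receptors are single-pass membrane proteins that bind Delta or Jagged ligands on neighbouring cells. Ligand pull exposes the receptor to ADAM proteases and then to gamma-secretase, which frees the intracellular domain. That domain joins the DNA-binding protein RBPJ and Mastermind coactivators in the nucleus, and HES and HEY genes, which encode repressors, are among its best known targets. NOTCH2NL genes arose by partial duplication of NOTCH2 in the human lineage, encode a short protein with the first EGF-like repeats of NOTCH2, and are known for promoting Notch activity in cortical progenitors. In the testis, Notch signals pass between germ cells and Sertoli cells.

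The copies are so similar to NOTCH2 that their reads could be split between them, and for that reason their sequences are shown first. The main NOTCH2 transcript, NOTCH2-201 (11389 bases), was aligned with NOTCH2NLA-204 (1954 bases), both from GENCODE 29 (GRCh38). Over 970 aligned bases they had 10 mismatches and 1 gap, an identity of 98.97%. In the part that is coding in both transcripts, 634 bases aligned with 6 differences (99.1% identity), and the longest run without a difference was 194 bases. That run begins at the NOTCH2NLA-204 coding start, base 363. The identity continues before it, with the nearest earlier mismatch at position 281 of NOTCH2-201. No 120-base coding window had more than 2 differences, and one of those with 2, which lies in exon 3 of each transcript, is shown with the differing bases in capitals. The window is at chr1:120005402-120005521 (minus strand) in NOTCH2 and at chr1:146164824-146164943 (minus strand) in NOTCH2NLA. The differing bases are at positions 532 and 562 of NOTCH2-201, counted from 1 at its 5′ end.
NOTCH2-201: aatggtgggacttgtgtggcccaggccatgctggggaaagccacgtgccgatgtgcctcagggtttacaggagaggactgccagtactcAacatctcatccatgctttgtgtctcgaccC
NOTCH2NLA-204: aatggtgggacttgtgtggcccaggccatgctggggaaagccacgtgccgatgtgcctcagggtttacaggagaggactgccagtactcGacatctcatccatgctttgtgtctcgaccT

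Of all stretches of 75 bases in NOTCH2NLA-204, 14.7% also occur in NOTCH2-201, and of stretches of 100 bases 8.84% do. A read from such a stretch could come from either gene. Past base 996 of NOTCH2NLA-204, the 2 transcripts no longer align. Transcripts of NOTCH2NLB and NOTCH2NLC were not compared here.

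The copies also share the sequence before their start with NOTCH2. In the RefSeq promoters (GRCh38.p14; 9 of the 10 genes had an entry), the last 178 bases before the NOTCH2 start recur without a difference at NOTCH2NLA, at 1 of 2 NOTCH2NLB starts and at NOTCH2NLC. These 4 promoters were the only ones in the table with the run. It is shown because the gene values of NOTCH2 and its copies are set side by side in what follows. In NOTCH2 it lies at chr1:120069663-120069840 (minus strand).
NOTCH2: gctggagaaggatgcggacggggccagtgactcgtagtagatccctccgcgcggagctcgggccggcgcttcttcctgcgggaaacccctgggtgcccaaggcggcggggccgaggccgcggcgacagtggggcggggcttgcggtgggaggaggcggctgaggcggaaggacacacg

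HES1 is the classical direct target of RBPJ, and its promoter is printed with the core letters of the RBPJ motif, TGGGAA, in capitals. The stretch is the 250 bases before the RefSeq start, chr3:194135898-194136147 (plus strand).
HES1: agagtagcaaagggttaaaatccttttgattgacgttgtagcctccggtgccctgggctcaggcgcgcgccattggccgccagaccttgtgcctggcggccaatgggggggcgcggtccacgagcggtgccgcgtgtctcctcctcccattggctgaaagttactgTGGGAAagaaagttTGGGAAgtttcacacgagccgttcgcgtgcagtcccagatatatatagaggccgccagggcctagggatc

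TGGGAA was searched on both strands of the 300-base promoters, which also hold the first 50 bases after the start. The HES1 promoter had 2 matches on its own strand, beginning 84 and 70 bases before the start. At least 1 match on either strand was present in 24.0% of 35116 promoters, and 2.28% had at least 2 on one strand. Of the other promoters of these genes, only the second NOTCH2NLB start had a match, 1 on each strand. A match describes the letters of this window and not a bound site.

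Receptor levels are given first, as normalised read counts, that is reads divided by the authors' size factor of the library. NOTCH2 (ENSG00000134250.21; chromosome 1, 119911553 to 120069626, minus strand), a receptor with both transmembrane and signalling domains, was lowest in RBMXL3. It had 6585 and 7597 normalised reads in WT, compared with 6509 and 4158 in GFP and with 3376 and 3516 in RBMXL3. Both RBMXL3 libraries lay below all 4 control libraries, and the GFP libraries spread widely, with replicate 1 near WT and replicate 2 near RBMXL3. The mean was 7091 ± 715 in WT and 5334 ± 1662 in GFP, compared with 3446 ± 99.1 in RBMXL3 (SD, n = 2 each), so that RBMXL3 was at 0.486 times the WT level and 0.646 times the GFP level. On the log2 scale of the fit, log2(rescaled value + 1), the difference was -0.59 against GFP and -1.03 against WT (SE 0.16 each). The difference against GFP was -0.27 without GFP replicate 1 and -0.91 without GFP replicate 2. In bulk RNA, fewer cells with the transcript and less transcript per cell cannot be told apart.

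NOTCH1 (ENSG00000148400.13; chromosome 9, 136494433 to 136545786, minus strand), the most widely studied receptor, had 907 and 946 normalised reads in WT, compared with 1349 and 978 in GFP and with 1354 and 1399 in RBMXL3. GFP replicate 1 was next to the RBMXL3 libraries and GFP replicate 2 next to WT, though the groups did not overlap. RBMXL3 was at 1.49 times WT, a log2 difference of 0.56 (SE 0.13), and at 1.18 times GFP, a log2 difference of 0.26 (SE 0.13). Against GFP this was 0.48 without GFP replicate 1 and 0.03 without GFP replicate 2.

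NOTCH3 (ENSG00000074181.9; chromosome 19, 15159038 to 15200981, minus strand), a receptor known from vascular smooth muscle, had 6386 and 7470.0 normalised reads in WT, compared with 9159 and 6259 in GFP and with 8121 and 8584 in RBMXL3. The GFP libraries enclosed the other 4 libraries. Log2 differences of RBMXL3 were 0.14 against GFP and 0.27 against WT (SE 0.15 each). The first was 0.41 without GFP replicate 1 and -0.13 without GFP replicate 2, so that its sign depended on which GFP library was used.

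Long genes as a set had a split between the GFP libraries in the same direction, but a smaller one than the receptors. Among 1222 tested genes whose longest transcript has at least 8000 bases, the median log2 difference of GFP replicate 1 minus replicate 2 was 0.12, with 64.9% above 0, against 0.00 over 14022 genes with a length and -0.06 in the 2690 under 2000 bases. NOTCH1, NOTCH2 and NOTCH3, with transcripts of 9306, 11389 and 8666 bases, had 0.45, 0.64 and 0.55. Among the shorter genes, JAG1 (5940 bases) had 0.35 and HEY1 (2296 bases) 0.25. NOTCH2NLB alone of the 10 genes was below 0, at -0.37. The median difference of the long genes was -0.14 in RBMXL3 against WT and -0.19 in GFP against WT, and it was 0.05 in RBMXL3 against GFP, where NOTCH2 was at -0.59. GFP replicate 1 also had the lowest share of mitochondrial reads, 1.31%, with 2.02% to 3.02% elsewhere. The part of these differences in the receptor values was not tested. The limits of 8000 and 2000 bases were chosen after the data were seen.

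**Figure D1:**
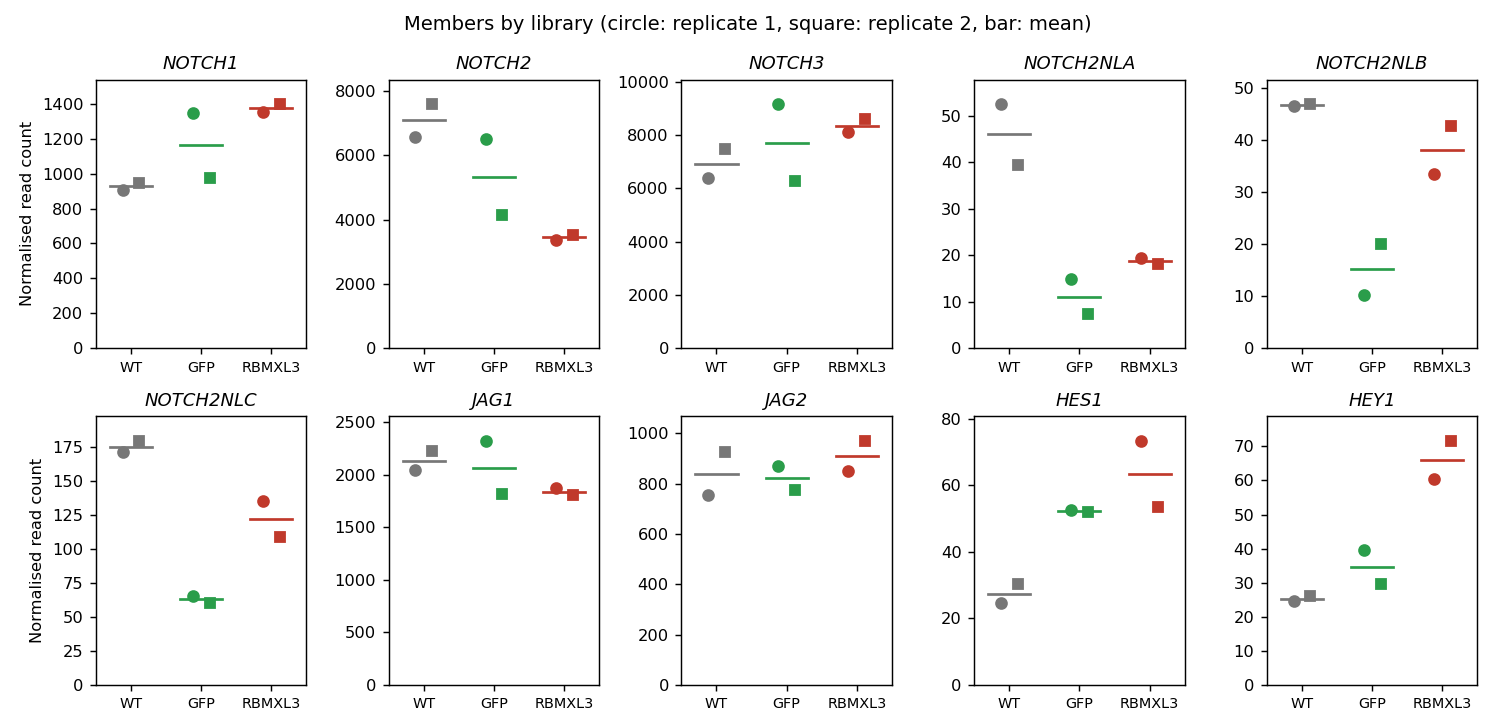
Normalised read counts (linear axis from 0) of the 10 genes in each library, with 1 panel per gene. Circles are replicate 1, squares replicate 2 and bars the mean of 2 libraries. NOTCH2 was lowest in both RBMXL3 libraries, the 3 NOTCH2NL copies were lowest in both GFP libraries, and HEY1 was highest in both RBMXL3 libraries.

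The NOTCH2NL copies had a different order of groups from NOTCH2, with GFP lowest in place of RBMXL3. NOTCH2NLC (ENSG00000286219.2) had 171 and 179.5 normalised reads in WT, compared with 65.6 and 60.4 in GFP and with 135 and 109 in RBMXL3, from 202, 214, 71, 57, 105 and 102 reads. The 3 groups did not overlap. GFP was at 0.359 times WT, and RBMXL3 was at 1.94 times GFP and 0.697 times WT. The log2 differences were -1.20 for GFP against WT, 0.74 for RBMXL3 against GFP and -0.45 for RBMXL3 against WT (SE 0.15 each), and the added 1 makes them smaller than the ratios of the means.

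NOTCH2NLB (ENSG00000286019.2) had 46.6 and 47.0 normalised reads in WT, compared with 10.2 and 20.1 in GFP and with 33.5 and 42.8 in RBMXL3, from as few as 11 reads in GFP replicate 1. Again GFP was lowest, at 0.324 times WT, with RBMXL3 at 2.52 times GFP and 0.815 times WT. Its log2 differences were -0.87 for GFP against WT, 0.68 for RBMXL3 against GFP and -0.19 for RBMXL3 against WT (SE 0.19 each).

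NOTCH2NLA (ENSG00000264343.7; chromosome 1, 146146203 to 146229026, minus strand) had 52.5 and 39.4 normalised reads in WT, compared with 14.8 and 7.42 in GFP and with 19.3 and 18.2 in RBMXL3. These came from 62, 47, 16, 7, 15 and 17 reads, and another gene on the same strand, AC239799.1, covers 15.1% of its exon bases. RBMXL3 was nearer to GFP than to WT here, at 0.408 times WT, a log2 difference of -0.71, and with 0.29 against GFP (SE 0.19 each). Between GFP and WT the log2 difference was -0.999. NOTCH2NLR, a further copy, had between 6.36 and 22.01 normalised reads and did not pass the filter.

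The values were also summed, which does not restore reads that a counter may drop. The 3 copies together had 270.1 and 266 normalised reads in WT, compared with 90.6 and 87.9 in GFP and with 188 and 170.0 in RBMXL3. WT was thus 3.003 times GFP, and RBMXL3 was 2.01 times GFP. NOTCH2 with the copies had to follow NOTCH2 itself, since the copies were at most 5.27% of this sum. The sum was 7359 ± 712 in WT and 5423 ± 1664 in GFP, compared with 3625 ± 86.4 in RBMXL3 (SD, n = 2 each).

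As a share of the reads of NOTCH2 and its copies, the copies took 3.94% (95% exact Clopper-Pearson interval 3.53 to 4.39) and 3.38% (3.03 to 3.77) in WT. In GFP the share was 1.37% (1.12 to 1.67) and 2.07% (1.65 to 2.56). In RBMXL3 it was 5.27% (4.47 to 6.17) and 4.61% (3.94 to 5.37). The 3 groups did not overlap, and RBMXL3 had the highest share while its NOTCH2 level was the lowest. NOTCH2 makes up most of the sum, so that a lower NOTCH2 level raises the share by itself. In RBMXL3 the copies together were at 0.668 times WT, although their share was above that of WT. Such intervals reflect counting error within each library alone. No molecular identifiers mark the reads, so duplicate reads count as separate and the intervals can be too narrow. How the authors' counter treated reads that match several genes is not given in the sources used here, and the part of read splitting in these shares was not tested.

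**Figure D2:**
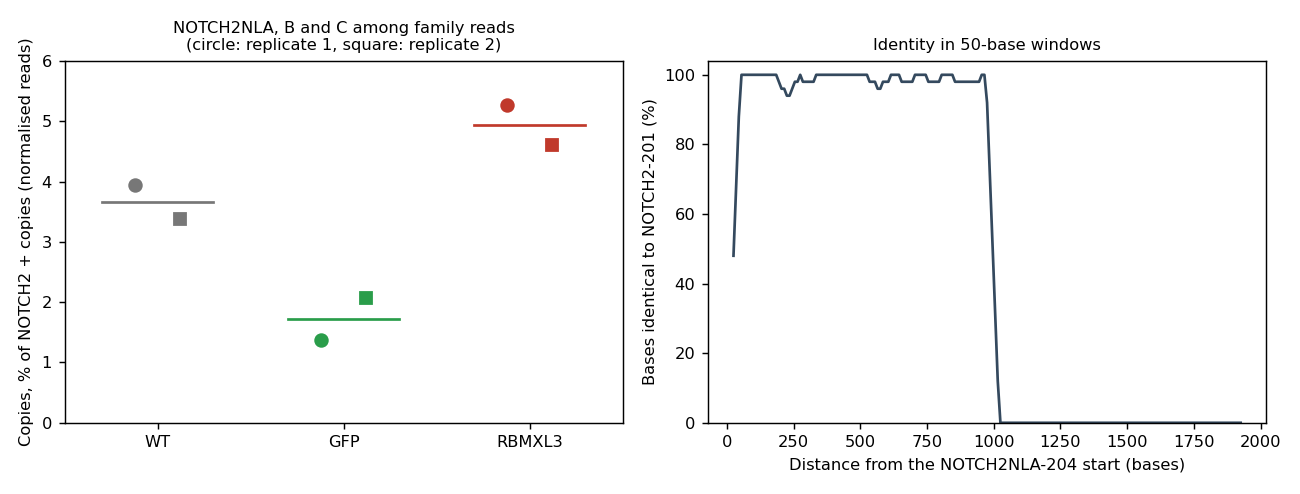
Left, the share of NOTCH2NLA, NOTCH2NLB and NOTCH2NLC in the normalised reads of NOTCH2 and these copies (%, circles replicate 1, squares replicate 2, bars the mean), which lay between 1.37% and 2.07% in GFP and between 4.61% and 5.27% in RBMXL3. Right, the percentage of bases identical to NOTCH2-201 in 50-base windows along NOTCH2NLA-204 against the distance from its start in bases; the alignment runs from base 27 to base 996, and windows past its end have 0 identity.

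The log2 differences of the Jagged ligands lay between -0.21 and 0.14 in the 3 comparisons. JAG1 (ENSG00000101384.12; chromosome 20, 10637684 to 10673999, minus strand), a ligand for all Notch receptors named here, had 2040.5 and 2222 normalised reads in WT, compared with 2321 and 1811 in GFP and with 1872 and 1806 in RBMXL3. The RBMXL3 libraries were below both WT libraries and overlapped with GFP. Its log2 differences were -0.16 against GFP and -0.21 against WT (SE 0.12 each), and the first was 0.02 without GFP replicate 1 and -0.33 without GFP replicate 2.

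JAG2 (ENSG00000184916.9; chromosome 14, 105140981 to 105168824, minus strand), the second Jagged ligand, had 753 and 924 normalised reads in WT, compared with 869 and 776 in GFP and with 851 and 969.9 in RBMXL3. All 3 groups overlapped. With log2 differences of 0.14 against GFP and 0.12 against WT (SE 0.12 each), each was about as large as its SE. AL512356.1, on the same strand, covers 7.33% of its exon bases.

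HES1 and HEY1, the targets, were both low and both higher in RBMXL3 than in WT. HES1 (ENSG00000114315.4; chromosome 3, 194136145 to 194138732, plus strand), a repressor of differentiation genes, had 24.6 and 30.2 normalised reads in WT, compared with 52.7 and 51.9 in GFP and with 73.4 and 53.5 in RBMXL3. Both groups of transduced cells lay above WT, and RBMXL3 replicate 2 was close to GFP. RBMXL3 was at 2.32 times WT and 1.21 times GFP, with log2 differences of 0.76 and 0.19, and GFP was at 1.91 times WT, with 0.57 (SE 0.18 each). The counts behind these values were 29, 36, 57, 49, 57 and 50 reads.

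HEY1 (ENSG00000164683.19; chromosome 8, 79764010 to 79767863, minus strand), a repressor known from vessel and heart development, had 24.6 and 26.0 normalised reads in WT, compared with 39.7 and 29.7 in GFP and with 60.5 and 71.6 in RBMXL3. Here the RBMXL3 libraries stood above all 4 controls and GFP lay between. RBMXL3 was at 1.90 times GFP and 2.61 times WT, with log2 differences of 0.62 and 0.87 (SE 0.17 each). With GFP replicate 1 left out, the difference against GFP became 0.75, and with GFP replicate 2 left out 0.497.

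With a call defined as a Benjamini-Hochberg adjusted p under 0.05 in limma over all 14292 genes tested, 4 of the 10 genes were called in RBMXL3 against GFP (HEY1, NOTCH2NLB and NOTCH2NLC higher, NOTCH2 lower), where 20.9% of all genes were called. Against WT, 6 were called (HES1, HEY1 and NOTCH1 higher, NOTCH2, NOTCH2NLA and NOTCH2NLC lower), beside 29.9% of all genes. Between GFP and WT, NOTCH2NLC was called lower in GFP, beside 3.67% of all genes (1.91% lower). NOTCH2NLA and NOTCH2NLB were called lower there too, but since they passed the filter only through groups where they are high, their calls in any comparison are not read against these shares. Between GFP and WT, edgeR called all 3 copies. DESeq2 called NOTCH2NLC alone there and gave no adjusted p for NOTCH2NLA and NOTCH2NLB. HEY1 was called higher against both controls, as were 6.88% of all genes, and NOTCH2 lower against both, as were 6.86% (13.7% in either direction). Groups did not overlap in 7 of the 10 genes for RBMXL3 against GFP (61.7% of all genes), 9 against WT (73.4%) and 7 between the controls (48.5%). NOTCH2NLA and NOTCH2NLB are among them in every comparison, so these counts are not read against the shares either. Since these contrasts chose the genes, the counts are a description. Both RBMXL3 comparisons use the same RBMXL3 libraries, and each shares a control with the comparison of GFP and WT.

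These calls depended on the filter, on the tool and on single libraries. Without the filter on low values, which brings 30989 genes into the test, limma called 0 of the 10 genes against GFP and 0 between GFP and WT, and against WT it called HEY1 and NOTCH2. With a mean rescaled value of at least 5, HES1, HEY1, NOTCH2NLA and NOTCH2NLB were not tested. DESeq2 called NOTCH2 and NOTCH2NLC alone against GFP, and did not call NOTCH2NLA or NOTCH2NLC against WT. NOTCH2NLC was also not called against WT with edgeR, with an added 0.1 in place of 1 or with the replicate number as a block. In summed TPM, a measure per transcript length, limma called HEY1 alone against GFP, NOTCH2 alone against WT and none of the genes between GFP and WT. HEY1 passed the filter in TPM through the RBMXL3 libraries alone, and its GFP replicate 2 was listed at 0. Its call in TPM is therefore partly set by the filter. Leaving out RBMXL3 replicate 1 left 0 of the 10 genes called against GFP, and leaving out RBMXL3 replicate 2 left NOTCH2NLC alone. NOTCH2 was not called against GFP without GFP replicate 1, without WT replicate 1 or without WT replicate 2. NOTCH2NLB lost its call against GFP without GFP replicate 1, and HEY1 without GFP replicate 2. HEY1 and NOTCH2 were called against WT under every library left out. NOTCH1 lost that call without WT replicate 1 or RBMXL3 replicate 2, and HES1 without WT replicate 1 or RBMXL3 replicate 1. NOTCH2NLA and NOTCH2NLC lost it with any WT or RBMXL3 library left out. NOTCH2NLB lost its call between GFP and WT without GFP replicate 1. Between GFP and WT, 0 of the genes were called without WT replicate 1 or without WT replicate 2, where limma called 0 and 6 genes in all and NOTCH2NLA did not pass the filter.

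**Figure D3:**
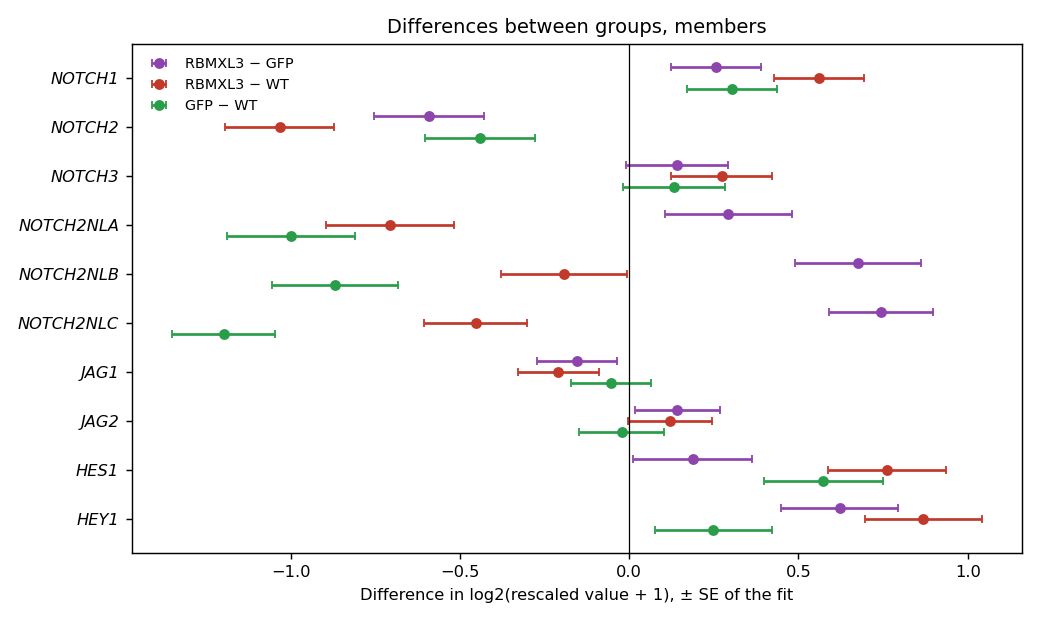
Differences between groups for the 10 genes in log2(rescaled value + 1), with bars of 1 SE from the fit over 14292 genes. NOTCH2 lies below 0 in all 3 comparisons, whereas the 3 NOTCH2NL copies lie above 0 for RBMXL3 against GFP and below 0 in the comparisons with WT.

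The transcript table gives TPM, which is per length and so allows levels to be compared between genes. Summed TPM was available for 7 of the 10 genes. The 1 coding transcript of NOTCH1 in GENCODE 29 was not among the transcripts used here, and NOTCH2NLB and NOTCH2NLC had no entry in that annotation. For 3 further genes the sum lacks coding transcripts of GENCODE 29. It holds 1 of 3 for NOTCH2, 3 of 4 for HEY1 and 2 of 3 for NOTCH2NLA, without its longest, NOTCH2NLA-203 (5042 bases). NOTCH3 had the highest level, between 43.9 and 74.9 TPM, and did not overlap with NOTCH2, between 18.0 and 37.3 TPM. NOTCH2 overlapped with JAG1 (17.4 to 25.3 TPM) and JAG1 with JAG2 (14.6 to 17.6 TPM). NOTCH2NLA was next, between 3.55 and 7.78 TPM, above HES1, between 1.35 and 3.30 TPM. HEY1, listed between 0 and 2.33 TPM, overlapped with HES1. The order of NOTCH2 and JAG1 differed between libraries. NOTCH2 was at 32.2 and 37.3 TPM and JAG1 at 22.04 and 25.3 TPM in WT, whereas in RBMXL3 NOTCH2 was at 18.0 and 19.5 and JAG1 at 20.6 and 19.98.

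In TPM, NOTCH2 was at 29.04 and 18.3 in GFP, so the RBMXL3 and GFP groups overlapped, unlike in normalised reads. Its log2(TPM + 1) difference was -0.85 against WT and -0.29 against GFP (SE 0.21 each). NOTCH2NLA was at 7.78 and 4.77 TPM in WT, compared with 4.203 and 3.76 in GFP and with 4.06 and 3.55 in RBMXL3. WT was again highest, but RBMXL3 and GFP overlapped. HES1 was at 1.35 and 1.65 TPM in WT, compared with 2.65 and 2.54 in GFP and with 3.30 and 2.58 in RBMXL3. WT was lowest, as in reads, but here RBMXL3 and GFP overlapped. HEY1 was at 0.702 and 0.888 TPM in WT and 1.95 and 2.33 in RBMXL3. In GFP it was at 0.667 TPM in replicate 1 and listed at 0 in replicate 2, although the gene table holds 28 reads of HEY1 there, so this 0 is not read as absence.

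NOTCH2NLA stood apart in how its 2 measures relate. Normalised reads per TPM and kilobase, summed over transcripts, lay between 11.5 and 19.9 in NOTCH2, NOTCH3, JAG1, JAG2 and HES1 over the 6 libraries. In NOTCH2NLA they were 3.63 and 4.29 in WT, compared with 1.99 and 1.02 in GFP and with 2.46 and 2.65 in RBMXL3. The gene table thus held fewer reads of NOTCH2NLA for its TPM than of these 5 genes, and fewest in GFP. Salmon shares reads out among similar transcripts by its model, and the gene counter's rule is not given in the sources used here, so the part of this difference in the NOTCH2NLA values was not tested.

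**Figure D4:**
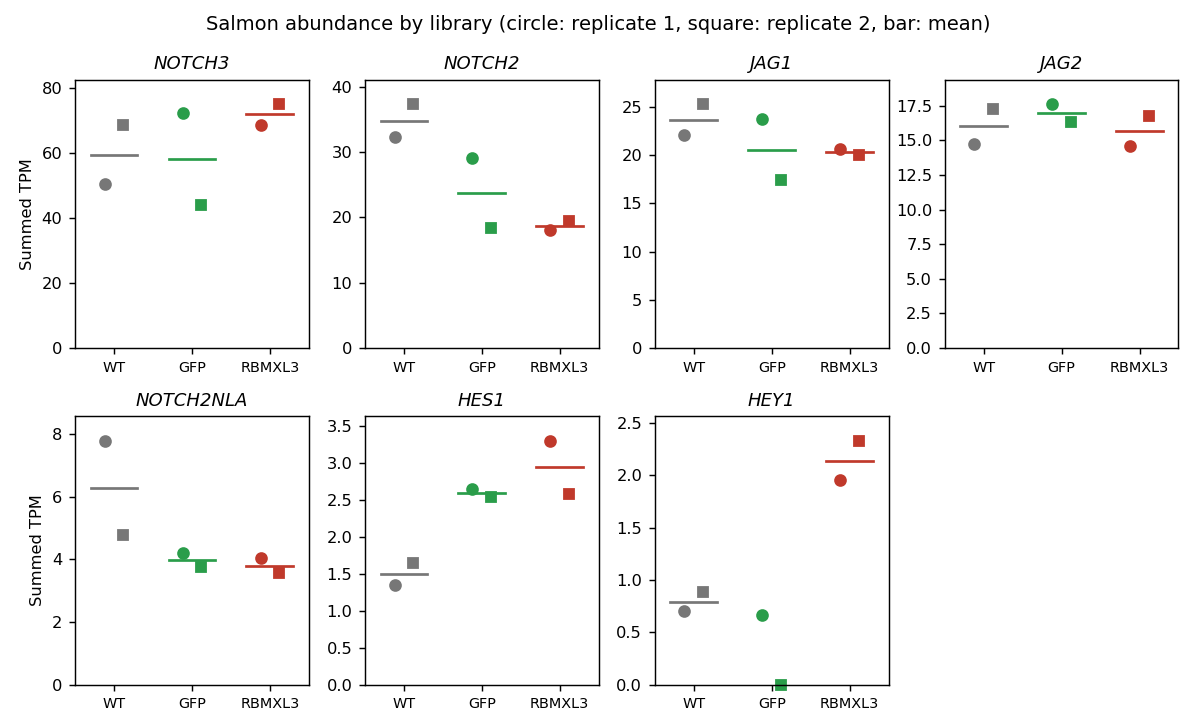
Salmon abundance (TPM summed over a gene's transcripts, linear axis from 0) of the 7 genes with a coding transcript in the table. Circles are replicate 1, squares replicate 2 and bars the mean, left out for HEY1 in GFP, where replicate 2 is listed at 0. NOTCH2 was at 32.2 and 37.3 TPM in WT and at 18.0 and 19.5 in RBMXL3.

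Transcript make-up was described for the same genes. NOTCH2-201 made up between 97.2% and 100% of NOTCH2 TPM in every library, and NOTCH3-201 between 80.1% and 93.3% of NOTCH3 TPM. Since NOTCH2-201 was the only coding NOTCH2 transcript present, of 3 in GENCODE 29, its share is over an incomplete set. JAG2 was more mixed. Its coding transcript JAG2-201 made up 52.4% and 59.7% in WT, compared with 51.6% and 40.1% in GFP and with 54.3% and 59.8% in RBMXL3. The retained-intron transcript JAG2-203 took between 16.5% and 42.3%. Another retained-intron transcript, JAG2-204, was at 1.90 and 1.25 TPM in WT and 5.33 and 3.66 in GFP, and was listed at 0 in both RBMXL3 libraries. Conversely, HES1-202 (retained intron) was at 0.452 and 0.316 TPM in RBMXL3 and listed at 0 in all 4 controls. The same held for the retained-intron transcripts NOTCH1-204, at 0.461 and 0.346 TPM, and NOTCH2-203, at 0.0809 and 0.103 TPM, and for NOTCH2-202, at 0.296 and 0.241 TPM. These transcripts were picked after their values were seen, and TPM keeps no depth that would give their counting error. The share of all transcripts with the same pattern was not counted. Low values confined to 1 group occurred in the controls too: JAG1-209 was at 0.543 and 0.663 TPM in WT and listed at 0 in GFP and RBMXL3. Similar low values also occurred in a single control library: NOTCH2-204 and NOTCH2-205 were at 0.417 and 0.496 TPM in WT replicate 1 and listed at 0 elsewhere. JAG1-202, a processed transcript, was at 4.28 TPM in GFP replicate 1 and between 0 and 0.447 in the others.

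The other genes of the pathway were taken from a list of 68, grouped by role. Of these, 60 were tested, and 8 (DLL4, NOTCH4, NOTCH2NLR, MFNG, HES3, HES5, HES7 and HEY2) did not pass the filter. Against GFP, 7 rose and 2 fell in RBMXL3, beside 10.5% of all genes called higher and 10.4% lower. Against WT, 14 rose and 6 fell, beside 14.6% and 15.3%. Between GFP and WT, limma called 0 of the 60, with 13 at an unadjusted p under 0.05, and edgeR and DESeq2, which called 2.54% and 5.22% of all genes there, also called 0. The median log2 difference of the list was 0.13, 0.02 and -0.03 in the same order, against 0.00, -0.01 and -0.01 over all genes. Against GFP, 16 were called without GFP replicate 1, 20 without GFP replicate 2, and 2 without either RBMXL3 library. Against WT, 36 and 35 were called without GFP replicates 1 and 2, and 10 without WT replicate 1 or without either RBMXL3 library. Without the filter, limma called 0 of the list against GFP, so that each call against GFP that follows was lost, and 10 against WT. In summed TPM it called 3 against GFP and 11 against WT.

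Among the 4 tested ligands, 2 rose against both controls. DLL1, a canonical Delta ligand (ENSG00000198719.9; chromosome 6, 170282206 to 170306565), had 141 and 146 normalised reads in WT, compared with 138 and 147 in GFP and with 257 and 223 in RBMXL3. The RBMXL3 libraries were above every control, with log2 differences of 0.67 and 0.65 against GFP and WT (SE 0.14; limma adjusted p 0.00633 and 0.00446). DLK1, a Delta-like protein without the usual receptor-binding domain (ENSG00000185559.16; chromosome 14, 100725705 to 100738224), had 37.3 and 59.6 in WT, compared with 75.8 and 78.4 in GFP and with 129 and 143 in RBMXL3. It rose by 0.66 and 1.16 (SE 0.18; limma adjusted p 0.0196 and 0.00063). Neither DLL3 nor DLK2 was called.

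Of the 9 genes for receptor cleavage, 1 rose and 0 fell against each control. This was PSENEN, a gamma-secretase subunit (ENSG00000205155.8; chromosome 19, 35745114 to 35747519), with 46.6 and 55.4 normalised reads in WT, compared with 49.9 and 83.7 in GFP and with 135 and 153 in RBMXL3. Its log2 differences were 0.91 against GFP and 1.17 against WT (SE 0.19; limma adjusted p 0.00607 and 0.00095). Genes on the opposite strand cover 41.0% of its exon bases and genes on the same strand 15.4%, so its count is uncertain. The proteases ADAM10 and ADAM17 were not called. In summed TPM, where 6.93% of genes were called against GFP and 11.5% against WT, PSENEN was not called, with 0.55 against GFP and 0.35 against WT (limma adjusted p 0.0563 and 0.134).

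Among 5 tested genes that glycosylate the receptors, RFNG, a fringe enzyme (ENSG00000169733.12; chromosome 17, 82047902 to 82051831), rose against both controls. It had 405 and 504 normalised reads in WT, compared with 560.0 and 554 in GFP and with 780.2 and 840.5 in RBMXL3, log2 differences of 0.52 and 0.81 (SE 0.12; limma adjusted p 0.0121 and 0.000675). GPS1, on the opposite strand, covers 21.6% of its exon bases, and its count is uncertain too. LFNG rose and EOGT fell against WT and not against GFP.

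The 14 genes for ubiquitination and endocytosis had 2 rises and 1 fall against GFP, and 4 rises and 2 falls against WT. MIB1, the ligase that drives ligand uptake (ENSG00000101752.13; chromosome 18, 21704957 to 21870957), had 1434 and 1895 normalised reads in WT, compared with 1608 and 1388 in GFP and with 2369 and 2387 in RBMXL3. It rose by 0.66 and 0.52 (SE 0.13; limma adjusted p 0.00415 and 0.0096). Without WT replicate 1 its difference against WT was 0.32, which was not called (limma adjusted p 0.134). DTX3, a Deltex ligase (ENSG00000178498.16; chromosome 12, 57604622 to 57609804), rose by 0.50 and 0.74 (SE 0.13; limma adjusted p 0.0208 and 0.00193). In contrast DTX4, another Deltex ligase (ENSG00000110042.8; chromosome 11, 59171430 to 59208587), had 2643 and 2807 in WT, compared with 2828 and 2355 in GFP and with 1768 and 1849 in RBMXL3. It fell by 0.51 and 0.59 (SE 0.11; limma adjusted p 0.00658 and 0.00191).

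In the nucleus, 0 of 23 genes rose and 1 fell against GFP, and 3 rose and 3 fell against WT. HDAC2, a histone deacetylase of corepressor complexes (ENSG00000196591.12; chromosome 6, 113933028 to 114011308), had 7897 and 6978 normalised reads in WT, compared with 6634 and 7760 in GFP and with 5566 and 5447 in RBMXL3. It fell by 0.38 and 0.43 (SE 0.11; limma adjusted p 0.0265 and 0.0109), but under quantile normalization the difference against GFP was -0.30 and was not called (limma adjusted p 0.0601). RBPJ, the DNA-binding partner of the receptor domain, had 9031 and 9308 in WT, compared with 7512 and 7742 in GFP and with 7429 and 7312 in RBMXL3, and fell against WT alone, by 0.31 (limma adjusted p 0.0245). The coactivators MAML1, MAML2 and MAML3 were not called.

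Of the 5 tested genes of the HES and HEY family with NRARP, 1 rose against GFP and 2 against WT, and 0 fell. NRARP, a feedback inhibitor, was the one against GFP, with 0.49 (limma adjusted p 0.0397). HES2 and HES6 were the 2 against WT, with 0.75 and 0.90 (limma adjusted p 0.0078 and 0.00531). HEYL, a close relative of HEY1, had 83.0 and 70.5 normalised reads in WT, compared with 78.5 and 90.1 in GFP and with 54.1 and 64.2 in RBMXL3, and was not called.

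Of the 8 genes called in the same direction against both controls, 7 lost the call against GFP when one or other RBMXL3 library was left out. MIB1 did not, but it lost its call against WT without either of them (limma adjusted p 0.0591 and 0.069), as did HDAC2, and DLL1 without RBMXL3 replicate 1. Without WT replicate 1, HDAC2 also lost its call against WT. The differences of the 8 genes kept their sign with each library left out in turn. In summed TPM, DTX3 alone was called against GFP, and DLK1, RFNG, DTX3, DTX4 and HDAC2 were called against WT. MIB1 was at 0.36 against GFP and 0.26 against WT there (limma adjusted p 0.287 and 0.416), and DTX4 at -0.25 against GFP (limma adjusted p 0.313).

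**Figure D5:**
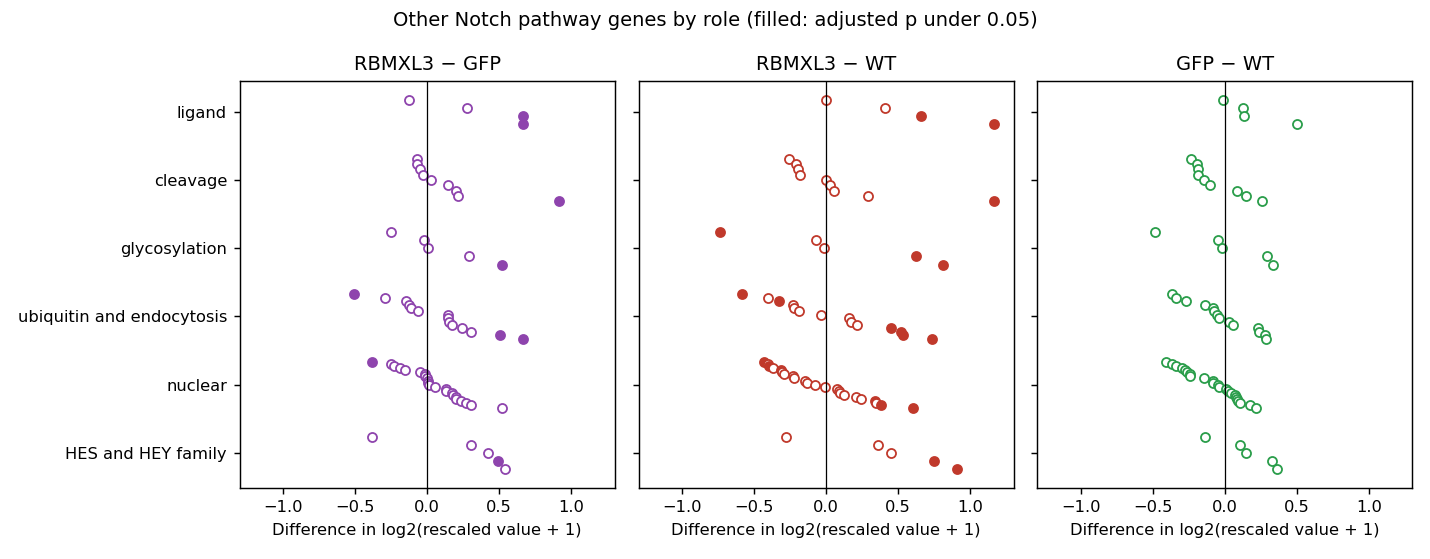
Differences in log2(rescaled value + 1) for 60 other Notch pathway genes by role, with 1 panel per comparison. Filled points have a limma adjusted p under 0.05: 9 for RBMXL3 against GFP, 20 for RBMXL3 against WT and 0 for GFP against WT.

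The genes whose pattern over the 6 libraries was most like that of 3 of these genes were picked by Pearson correlation of log2(rescaled value + 1) among 10742 genes. For NOTCH2 these were ZNF142, SEC24D and TENM3, with r between 0.996 and 0.999, and 167 genes had r above 0.95. For NOTCH2NLC they were FGF13, ZCCHC14 and OTUD4, with r between 0.984 and 0.988, and 49 genes had r above 0.95. For HES1 they were MMAB, CRISPLD2 and CBX8, with r between 0.983 and 0.9995, and 52 genes had r above 0.95. TENM3 shows the pattern of NOTCH2, with 3308 and 3684 normalised reads in WT, compared with 3252 and 2444 in GFP and with 1994 and 1999 in RBMXL3. The size of a change is not part of this measure: OTUD4 had 1825 and 1777 in WT, compared with 1351 and 1338 in GFP and with 1604 and 1503 in RBMXL3, a smaller range than NOTCH2NLC. The 6 libraries share their groups and depth, and the correlations are a description.

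The libraries held between 17685680 and 29318007 reads, with the fewest in RBMXL3. RBMXL3 itself had 0 reads in all 4 controls, where a count of 0 allows up to 3, and 84 and 68 reads in the RBMXL3 libraries. The 8 seminoma markers (POU5F1, NANOG, SOX17, TFAP2C, PRDM1, KIT, PDPN and LIN28A) had at least 1411 normalised reads in every library. Of these, KIT and LIN28A fell in RBMXL3 against both controls, PRDM1 fell and POU5F1 rose against WT alone, and KIT was also lower in GFP than in WT (limma adjusted p 0.0407). KIT was at 1411 and 1429 normalised reads in RBMXL3, and POU5F1 at 41233 and 40115, with 31660 and 27460 in WT. Of 2 markers of embryonal carcinoma, SOX2 was between 11.7 and 34.2 and rose against GFP, at 2.43 times its level (limma adjusted p 0.048). SOX2 passed the filter through WT and RBMXL3 libraries and not through GFP, so that this difference is partly set by the filter. Neither edgeR nor DESeq2 called it against GFP. DNMT3B rose against WT, by 0.37 (limma adjusted p 0.0158). Of 12 markers of Sertoli, Leydig, endothelial, immune and fibroblast cells, 4 were tested. The summed level of all 12 was 416 to 478.2 in WT, 603 to 607 in GFP and 740.3 to 768 in RBMXL3, with COL1A1 the largest part. CYP17A1 and CD3E were at 0 in all libraries, and PTPRC and STAR had at most 1 read. SOX9, called higher by limma in RBMXL3 against both controls, was between 67.1 and 78.4 in the controls and at 118 and 115 in RBMXL3. DESeq2 did not call SOX9 against either control. COL1A1, called higher than WT in both groups of transduced cells, was at 206 and 235 in WT, compared with 384 and 335 in GFP and with 399 and 407 in RBMXL3. PDGFRA, a fibroblast marker that did not pass the filter, was instead lowest in RBMXL3, at 0.237 times GFP and 0.441 times WT. It had 11.01 and 5.03 normalised reads in WT, compared with 12.94 and 16.95 in GFP and with 3.86 and 3.21 in RBMXL3. DCN, also a fibroblast marker, had at most 2 reads in any library. The part of these markers in the values of the Notch genes was not tested.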

How the data were processed

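The members and gene lists were chosen with earlier results of these data known, and no choice of them is independent of the values. Reads were trimmed with Trim Galore 0.6.10, aligned with STAR 2.7.11a and quantified with Salmon 1.10.2 on GRCh38, and DESeq2 was used, per the submitters' processing notes, which give no order of steps. The kit was a stranded mRNA kit, per the labels' protocols. The counter, the annotation and the strand setting of the counting are not given in the sources used here.

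The deposited gene table holds a normalised signal: all 145320 nonzero values were whole multiples of 1 step per library (100% within 0.001 of a whole read), so the authors divided reads by 1 size factor per library. The deposited transcript table holds TPM, computed by the authors with Salmon, which keeps no depth. Gene values were divided by 23.9, a common factor that brings their average library total to that of CPM. Genes with at least 1 in at least 2 libraries (14292) entered limma 3.58.1 (R 4.3.3) on log2(value + 1), with 1 coefficient per group, an intensity trend, two-sided tests and Benjamini-Hochberg adjustment. Whole recovered reads were also tested with edgeR 4.0.16 and DESeq2 1.42.0, which called 2851 and 2379 genes against GFP, where limma called 2986. All 62700 identifiers had a symbol entry, and coordinates and transcripts are from GENCODE 29 (GRCh38). Summed TPM was 94.7% or more covered by that annotation.

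Named were the 10 genes, RBMXL3, the pathway genes called alike against both controls, up to 12, and the 3 genes most like NOTCH2, NOTCH2NLC and HES1 with a mean rescaled value of at least 5; KIT, LIN28A and other genes outside this rule were named after their values were seen. The alternatives were a pseudocount of 0.1, no filter, a mean of at least 5, quantile normalization, edgeR, DESeq2, summed TPM, a replicate block and leaving out each library.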

Additional observations from a re-analysis of the deposited data

How the results depend on the processing

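RBMXL3 against GFP gave 2986 called genes, 950 without the filter, 988 in summed TPM and between 679 and 4304 with 1 library left out. For the Notch pathway list these counts were 9, 0, 3 and 2 to 20. RBMXL3 against WT gave 4271 genes, 2327 without the filter, 1638 in summed TPM and between 1428 and 6155 with 1 library left out, and for the list 20, 10, 11 and 10 to 36. GFP against WT gave 524 genes, 0 without the filter, 327 after quantile normalization, 0 in summed TPM and between 0 and 2770 with 1 library left out, and for the list 0, with 0 to 8 when 1 library was left out. In summed TPM, 779 of the 988 genes called against GFP were higher, compared with 1503 of 2986, and the median of all genes was 0.13. With the replicate number as a block, 2386, 3697 and 191 genes were called in the same order. The numbers do not pair the libraries: replicate differences correlated at -0.16, 0.03 and -0.09 between groups. Of the values of the 10 genes under these alternatives, 136 equal the reported value because the alternative cannot change it, 190 moved by less than the spread between replicates and 67 by more, and calls were lost as the report gives. Limits: 2 libraries per group, low counts for NOTCH2NLA, NOTCH2NLB, HES1 and HEY1, and a fit with 1 library in a group assumes that it varies like the other groups.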
